A study of Mus musculus with 3 samples.

Results

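Bone marrow granulocyte progenitors from mice carrying a mammary tumor were compared with the same cells from tumor-free mice, across all genes expressed in either. The members of the comparison were 2 of the 3 libraries of the study, chosen by the mouse model in their labels and not by any measured value, and 10426 of 24421 gene symbols. Each of these genes had an RPKM of 1 or more in NTB, in 4T1-TB or in both. RPKM is the number of reads of a gene scaled to the length of its model and to the size of the library. NTB is the library from non-tumor-bearing controls and 4T1-TB the library from mice that had 4T1 cells, a mouse mammary carcinoma line, implanted orthotopically. Both came from female F1 semi-syngeneic mice (H-2b/d), so no strain or genotype difference is labelled between them. In both groups the cells were purified from the marrow by flow cytometry and total RNA was sequenced. Age, the time after implantation, tumor size, the gate, and how many mice stood behind a library are not stated in the labels. The remaining library of the study, from female IRF8-deficient C57BL/6 mice, is shown only beside the values of the main comparison, and it differs from both others in strain as well as genotype.

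Granulocyte progenitors are committed precursors that divide, pack granule proteins in waves and mature into neutrophils. Solid tumors and the cytokines they release, among them G-CSF, are known to expand the production of neutrophils and of immature myeloid cells that restrain T cells. IRF8 is a transcription factor that directs progenitors toward monocytes and dendritic cells and limits the granulocyte branch, and signaling through STAT3 is known to lower it.

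With 1 library a side there was no replicate, no p-value and no measure of the spread between mice, and every difference below describes 2 libraries. A gene is called 2-fold higher or lower when log2(RPKM + 1) differed by at least 1, which understates the difference of low genes. Intervals on single folds are 95% exact binomial (Clopper-Pearson) intervals from reads recovered from the deposited values, and they cover counting error only. The recovered reads came to 42807888 in NTB and 23647848 in 4T1-TB, so an RPKM of 1 at the median gene length rested on 133.5 and 66.2 reads. Paired RPKM values are given for NTB and then 4T1-TB throughout. The ribosomal RNA precursor Rn45s took 1.77% of reads in NTB and 6.25% in 4T1-TB, and Lars2, the gene of a mitochondrial leucyl-tRNA synthetase, took 0.0285% and 1.02%. The RPKM of Rn45s was 2903 and 11417, and that of Lars2 70.2 and 2790.5, with 11712 in IRF8-deficient. In IRF8-deficient Rn45s stood at 32498, so the order of the 3 libraries was the same for both. The part of ribosomal RNA in the Lars2 value was not tested.

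Cells in both libraries carried the transcripts that define granulocyte progenitors. Mpo, the myeloperoxidase gene, stood at 6811 and 6749, and Elane, the neutrophil elastase gene, at 4411 and 4332, both among the highest genes of each library. All 15 markers listed for granulocyte progenitors reached an RPKM of 1, and 1 of them was 2-fold lower, Cd34, a surface glycoprotein of early progenitors (36.9 and 8.73). No listed T cell, NK cell or megakaryocyte marker reached an RPKM of 1, and the B cell marker Pax5 was listed at 0 in both. Of the remaining B cell and plasma cell markers, Cd79b reached 1 (16.4 and 12.3), and of the erythroid markers Car2 (4.25 and 2.62) and Tfr2 (1.5 and 2.84) did. Of 14 epithelial and mammary carcinoma markers, 8 were listed at 0 in both libraries, including Krt14, Krt5 and Krt19, and Epcam was at 0.0108 and 0. The keratin gene Krt18 was past the line downward (5.93 and 2.03), and no epithelial marker was past it upward.

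Most calls among cell type markers were in the lists for mature neutrophils and monocytes. All 20 listed mature neutrophil markers were above 0 in difference and 13 were 2-fold higher in 4T1-TB, beside 1.71% over all genes. Their median difference was 1.77, and their summed RPKM was 9011 in NTB and 13757 in 4T1-TB. S100a8 and S100a9, both under 2-fold, made up most of that sum, and the other 18 markers summed to 342 and 947. With a pseudocount of 5, 11 were called and the median was 1.11. The list leaves out several neutrophil granule genes given below, which were not uniformly higher. Ngp, Camp, Fcnb and Lyz2 were lower without passing 2-fold, Olfm4 was 2-fold lower and Lcn2 was 2-fold higher. All 11 monocyte and macrophage markers compared were below 0 in difference and 6 were 2-fold lower, with a median of -1.09 and a summed RPKM over the whole list of 377 and 213. The other 7 listed monocyte markers were under an RPKM of 1 in both libraries, and 4 of the list were at 0 in 4T1-TB. Smaller lists also differed. Of 2 eosinophil markers compared, Prg2 was 2-fold lower (3.41 and 0.484) and Siglecf stood at 12.9 and 12.1. The 5 basophil and mast cell markers had a median of -0.60 with no call and summed to 181 and 122, and the endothelial marker Pecam1 stood at 12 and 5.77. In a bulk library, fewer cells of a type and less RNA per cell cannot be told apart. Several of these markers are also members of the gene groups below, among them Cxcr2, Cxcr1, Fpr1, Fpr2, Mmp8, Mmp9, Il1r2, Ifitm6, Stfa2l1 and Slfn4. The same holds for the monocyte markers Csf1r, Ly86, Klf4, Irf5 and Cx3cr1. Those groups are therefore not separate from the markers, and the part of cell composition in their results was not tested.

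Of 10426 genes, 178 (1.71%) were 2-fold higher in 4T1-TB and 144 (1.38%) were 2-fold lower. The remaining 96.9% passed neither line. The counts of every list, above and below, are to be read beside the shares of 1.71% and 1.38%. The median difference over all genes was 0.01, 25% of genes lay below -0.19 and 25% above 0.20, and the outer 5% on each side began at -0.59 and 0.55. At 4-fold the calls became one-sided, with 47 genes higher and 5 lower. The 5 were Fosb, Thbs1, Rasa4, Irf8 and Pyhin1. When the libraries were scaled by their summed recovered reads the counts were 146 higher and 180 lower, since every log2 ratio then shifted by -0.156, so the balance of calls between directions depends on the scaling. Of the 322 called genes, 318 had a counting interval that excluded a ratio of 1. The calls and the intervals rest on the same reads, so this count gives no separate support for the calls.

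Most called genes were of low or medium abundance. Among the 1311 genes with a mean RPKM of 50 or more over both libraries, 12 (0.915%) were higher and 4 (0.305%) lower. Among the 6616 genes from 5 to 50 the calls were 83 (1.25%) and 42 (0.635%), and among the 2280 from 1 to 5 they were 69 (3.03%) and 83 (3.64%). The share was highest among the 219 genes with a mean under 1, with 14 (6.39%) higher and 15 (6.85%) lower. Of the 178 higher genes, 80 were under an RPKM of 1 in NTB and 15 were listed at 0 there. Of the 144 lower genes, 63 were under 1 in 4T1-TB and 6 were listed at 0. At the upper end, 81 of the 178 higher genes reached an RPKM of 10 in 4T1-TB, and 36 of the 144 lower genes had reached it in NTB. Some of the genes nearest the line are named here, and others not named lay as near or nearer. On the higher side Plscr1 (15.3 and 31.9) and Sema6b (4.74 and 10.5) were just inside, and Slc16a3 (10.8 and 22.5) and Junb (14.2 and 29.2) just outside. On the lower side Arap2 (7.98 and 3.48) and Tle6 (1.98 and 0.492) were inside, and Sox4 (6.52 and 2.78) and Rgs12 (4.0 and 1.5) outside.

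**Figure D1:**
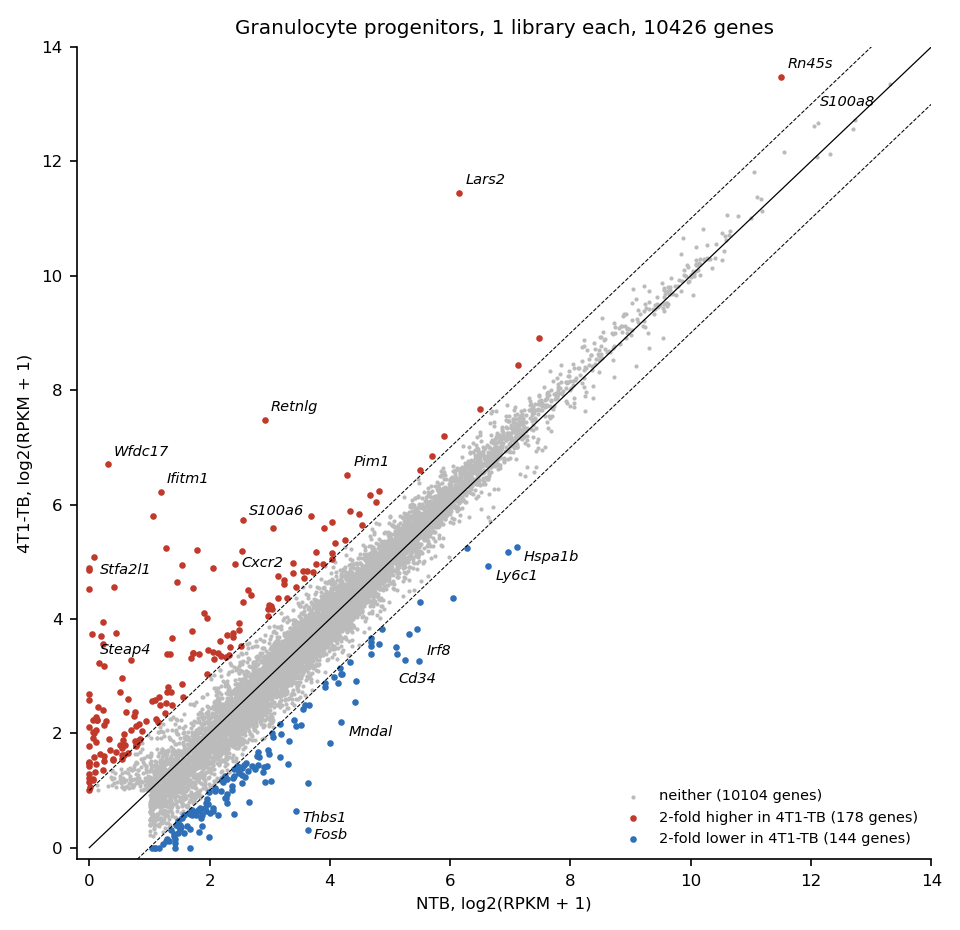
Each point is 1 of the 10426 genes, with log2(RPKM + 1) in NTB on the horizontal axis and in 4T1-TB on the vertical axis, and the dashed lines mark a difference of 1. Most genes lie along the diagonal, and the 178 higher genes reach farther from it than the 144 lower ones.

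Irf8 was among the largest losses. Its RPKM was 43.8 in NTB and 8.6 in 4T1-TB, from 6729 and 656 reads, which is 5.09-fold lower (interval 4.69 to 5.52). The gene lies on chromosome 8 of mm10, from 120736358 to 120756694. Among the 10 interferon regulatory factors and partners compared, the other member that was 2-fold lower was Irf5, which acts in Toll-like receptor signaling in monocytes and macrophages (4.83 and 1.64). Irf9, which acts in the type I interferon response, stood at 10.1 and 6.15. The remaining members differed by 0.30, the difference of Batf, or less, among them Irf1 (15.1 and 15.4), Irf2 (7.93 and 8.27), Irf3 (21.2 and 20.9) and Batf (15.5 and 19.4). Irf8 and Irf5 were thus the 2 members past the line. The median of the list was 0.00, and it was below 0 under each of the 3 other scalings tried.

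Other transcription factors that were 2-fold lower were Klf4, a factor of monocyte differentiation (6.4 and 1.51), Zeb2, a repressor active in myeloid and stem cells (27 and 10.8), and Zbtb16, the PLZF gene (4.82 and 1.2). Zeb2os, the antisense neighbor of Zeb2, was lower beside it (4.21 and 1.11), and because strandedness is not stated the reads of the 2 genes cannot be told apart. Hoxa9, a factor of early myeloid progenitors, was higher (1.9 and 6.29), while its partner Meis1 stood at 2.09 and 0.641 and missed the line. Mxd1, which competes with MYC for MAX and accompanies terminal differentiation, was higher (7.76 and 19.6), and Myc stood at 69.8 and 76.6. None of the 27 C/EBP, ETS, RUNX, GFI and MYB regulators compared passed 2-fold. The largest differences in that list were those of Cebpb, the C/EBP factor of emergency granulopoiesis (9.8 and 19.5), and Id1, an inhibitor of basic helix-loop-helix factors (7.43 and 13.7). Spi1, the PU.1 gene, stood at 85.5 and 130.4, Runx1 at 17.5 and 12.9 and Myb at 300.2 and 239.

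The largest difference upward was that of a secreted protein gene. Wfdc17, the gene of a secreted protein with a whey acidic protein domain, had an RPKM of 0.238 in NTB and 103 in 4T1-TB, from 5 and 1077 reads (434-fold, interval 186 to 1341). Ifitm1, an interferon-induced membrane protein gene, stood at 1.28 and 73.7, and Steap4, a metalloreductase gene, at 0.0356 and 12.3. Asprv1, an aspartic protease gene better known from skin, stood at 0.146 and 12.1 (82.7-fold, interval 44.5 to 174). Pla2g7, which encodes the platelet-activating factor acetylhydrolase, stood at 0.361 and 12.6 (34.7-fold, interval 24.2 to 51.7), and it was the only 1 of 19 eicosanoid genes compared to pass 2-fold. Retnlg, a resistin-like gene of neutrophils, stood at 6.54 and 178. S100a6, which encodes a calcium-binding protein of the S100 family, stood at 4.88 and 51.7 (10.6-fold). S100a10, of the same family, was lower (24.8 and 9.42).

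**Figure D2:**
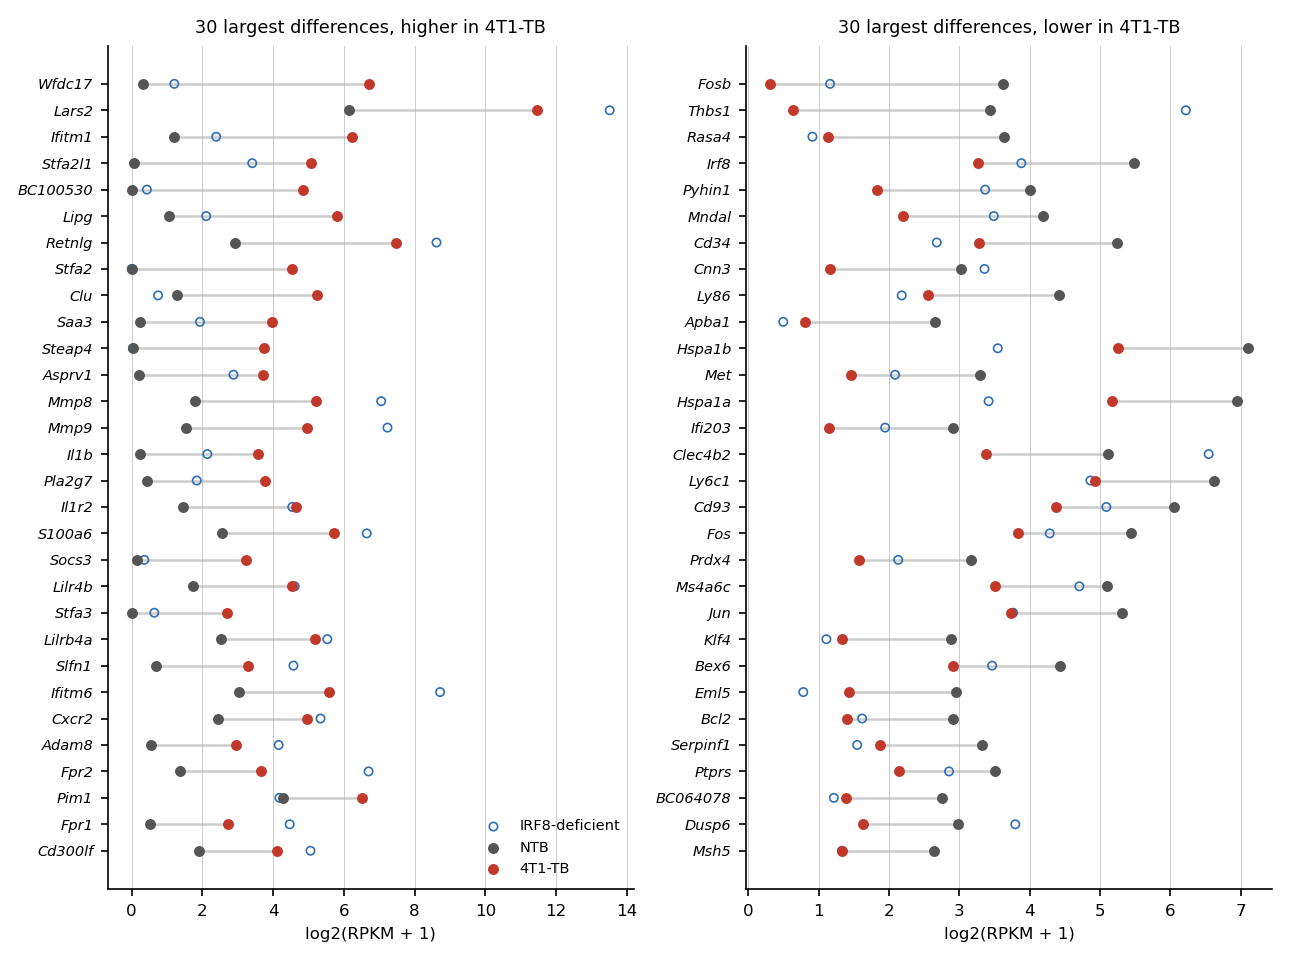
The 30 genes with the largest difference in each direction, counting genes that reached an RPKM of 5 in 1 of the libraries compared, are drawn as log2(RPKM + 1), with NTB in gray, 4T1-TB in red and IRF8-deficient as open circles. Genes are ordered by difference, from Wfdc17 on the left and Fosb on the right, and the IRF8-deficient circle of Ifitm1, Clu and Socs3 lies nearer NTB than 4T1-TB.

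In the IRF8-deficient library, which shares the NTB control with this comparison, the leading genes did not all stand where they stood in 4T1-TB. Mmp9 had 1.91 and 29.8 and then 149 in IRF8-deficient, and Mmp8 had 2.45 and 36 and then 132. Socs3 had 0.115 and 8.36 and then 0.281, and Steap4 0.0356 and 12.3 and then 0.0244. For Clu, the clusterin gene, the 3 values were 1.41, 36.6 and 0.678, and for Pim1, a kinase gene induced by STAT signaling, 18.5, 90.9 and 17.1. Socs3, Steap4, Clu and Pim1 were therefore high in 4T1-TB alone among the 3 libraries, while Mmp9 and Mmp8 were higher still in IRF8-deficient. Strain differs from that library as well, and no test of any of these differences is possible.

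Part of the called genes lay near each other. Runs of 2 or more genes called in the same direction within 200 kb held 45 of the 170 higher genes that have coordinates, in 19 runs, and 17 of the 138 lower genes, in 6 runs. A run can hold uncalled genes, as from Cxcr2 to Slc11a1, where 3 of 7 genes compared were called. Runs were not counted for other sets of the genes compared, so these numbers have no baseline. The longest run was the stefin cluster on chromosome 16 of mm10, from 36156811 to 36455392, where all 7 genes compared were 2-fold higher. With the cystatins they made a list of 10 genes compared with a median of 2.24. Stefins are cytosolic inhibitors of cysteine cathepsins, and mouse neutrophils express several tandem copies. Stfa2l1 stood at 0.0539 and 32.7, Gm5483 at 0.324 and 22.6 and BC100530 at 0 and 27.9. Stfa2 stood at 0 and 22, Stfa3 at 0 and 5.46, Stfa1 at 0.534 and 4.2 and BC117090 at 0 and 2.44. In NTB the highest of the 7 was Stfa1 and 4 were listed at 0, so all 7 entered the comparison through 4T1-TB, and a gene at 0 that reaches 1 is past the line by construction. With a pseudocount of 5, 5 of the 7 were still called. Against a floor of 3 reads in NTB, BC100530 was at least 184-fold higher and Stfa3 at least 33.6-fold higher. The copies are near-identical in places, so how reads were divided among them is uncertain. Cystatins outside the cluster did not share the difference, with Cst7 at 189.8 and 213, Cstb at 25.3 and 31 and Cst3 at 205 and 186.

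**Figure D3:**
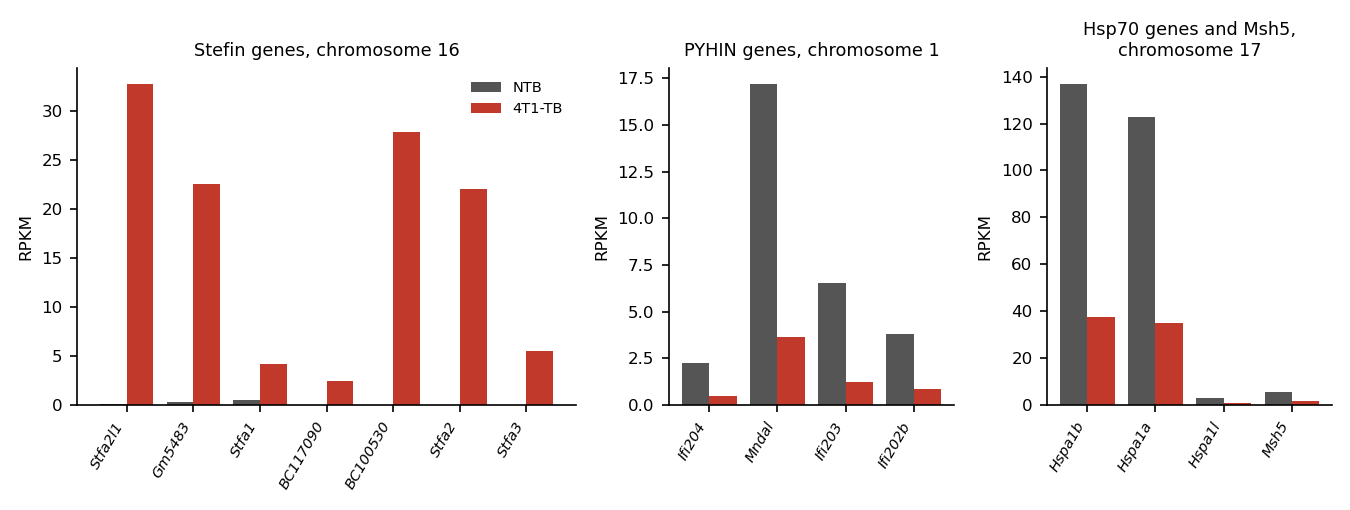
Bars give the RPKM of neighboring called genes in chromosome order, NTB in gray and 4T1-TB in red, each panel with its own axis from 0. The 7 stefin genes are at or near 0 in NTB, and the PYHIN and Hsp70 neighbors are lower in 4T1-TB.

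Other runs of higher genes included small families of myeloid receptors and inhibitors. Some runs paired neighbors from different families, such as Phospho1 with Gngt2, Reck with Glipr2 and Asprv1 with Mxd1. On chromosome 11, Ccl6, Wfdc17 and Wfdc21 lay in 1 run, with Ccl6, a chemokine gene, at 3.87 and 12.1 and Wfdc21 at 139 and 344. The receptor genes Cxcr2 and Cxcr1 lay together with the phagosomal metal transporter gene Slc11a1 (0.32 and 1.9). Ifitm1 was accompanied by Ifitm6 (7.26 and 46.9), but Ifitm7, of the same family, was 2-fold lower (4.59 and 1.51). The Schlafen genes Slfn1 (0.613 and 8.75) and Slfn4 (10.7 and 27.7) were higher side by side, and Slfn8 was lower (4.3 and 1.61). Csf2rb (24.4 and 70.9) and its paralog Csf2rb2 (1.48 and 6.01) also formed a run, with reads that can be shared between the copies.

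Receptors for chemoattractants, which guide neutrophils out of the marrow and into tissue, held 7 calls. The 18 compared had a median difference of 0.49, with 6 past 2-fold upward and 1 downward, beside 1.71% and 1.38% over all genes. With a pseudocount of 5, 3 were past the line upward and none downward, and the median was 0.27. Cxcr2, the receptor for neutrophil chemokines, stood at 4.38 and 30.2 (6.89-fold, interval 6.28 to 7.56). Of the formyl peptide receptor genes, Fpr1 stood at 0.422 and 5.58 and Fpr2 at 1.58 and 11.7. Ccr1 stood at 1.53 and 9.45 and C5ar1, the receptor for complement C5a, at 2.23 and 8.97. Cxcr1 was listed at 0 in NTB, stood at 1.68 in 4T1-TB, and was at least 28.2-fold higher against the floor of 3 reads. Cxcr4, the receptor that holds neutrophils in the marrow, did not pass the line (111 and 76.5). The 1 lower call was Cx3cr1, a receptor of monocytes (2.81 and 0.612), and Ccr2, another, stood at 24.2 and 13.4 without passing.

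Paired immune receptors held 8 calls, all in 1 direction. Of 17 inhibitory or paired receptors compared, the median was 0.51 and 8 were 2-fold higher, beside a share of 1.71% over all genes. Of the 8, 2 were under an RPKM of 1 in NTB, and with a pseudocount of 5 the count was 4. These receptors carry or lack tyrosine motifs that recruit phosphatases and set the threshold of myeloid activation. Lilrb4a stood at 4.79 and 35.3, and its neighbor Lilr4b, which is not on the list, at 2.3 and 22.1. Cd300lf stood at 2.75 and 16.2, Pirb, the MHC class I receptor, at 2.86 and 15.3, Pilra at 3.5 and 11.2, Siglece at 4.64 and 14.3 and Cd33 at 2.31 and 9.56. Sirpb1a (0.0544 and 2.01) and Sirpb1b (0.209 and 3.64) were near 0 in NTB, whereas Sirpa, which binds CD47, stood at 47.5 and 53.6. Among the 5 below 0 were Lair1 (34.1 and 29.4), Siglecg (25 and 16.2) and Milr1 (7.25 and 3.9).

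Among 29 Fc receptors, activating lectins and their kinases, the median was 0.19, 6 genes were higher and 1 was lower. The shares over all genes were 1.71% and 1.38%, and with a pseudocount of 5 the counts were 2 and 1. The neighboring lectin genes Clec4d (1.44 and 9.44) and Clec4e (2.29 and 9.55), which sense mycobacterial glycolipids and damaged cells, were higher. So were Cd300ld (0.0825 and 2.59) and, among others, the IgG receptor gene Fcgr4 (3.16 and 9.76) and the Src family kinase gene Fgr (4.26 and 12.5). The lectin gene Clec4b2 was lower (33.7 and 9.4, 3.59-fold, interval 3.11 to 4.15). The adaptors and the kinase that many of them share did not pass the line, with Fcer1g at 35.8 and 35.6, Tyrobp at 197 and 161 and Syk at 48.7 and 55.7.

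Of 12 metalloproteinases, ADAM proteases and their inhibitors compared, 6 were 2-fold higher and none was lower, and the median was 0.78. The shares over all genes were 1.71% higher and 1.38% lower. Of the 6, 3 were under an RPKM of 1 in NTB and so entered the comparison through 4T1-TB. With a pseudocount of 5, 3 were called and the median was 0.31. Mmp8, the neutrophil collagenase, stood at 2.45 and 36 and Mmp9, a gelatinase, at 1.91 and 29.8. Adam8 stood at 0.458 and 6.79, Adam19 at 0.187 and 3.43, and Mmp25, a membrane-anchored protease, at 0.768 and 2.67. The Mmp25 call was lost under scaling by summed reads or without the 20 highest genes. Reck, a membrane inhibitor of metalloproteinases, was higher as well (1.17 and 3.74). Adam10 and Adam17, the widely expressed sheddases, did not pass, with 40.7 and 46.1 for Adam10 and 15.7 and 14.9 for Adam17. Mmp28, which is not on the list, was 2-fold lower (4.15 and 1.01).

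The interleukin-1 system differed at both ligand and receptor. Il1b, the interleukin-1 beta gene, stood at 0.168 and 10.9 (64.5-fold, interval 34.6 to 136), and Il1r2, the decoy receptor that binds it without signaling, at 1.76 and 23.9. Il1f9, the interleukin-36 gamma gene, stood at 4.85 and 18.6. The other 3 higher genes of that list act in sensing, the adaptor Myd88 (18 and 40.4), Tlr2 (4.0 and 9.29) and Tlr13, a receptor for bacterial ribosomal RNA (0.562 and 5.04). The Myd88 call was lost under scaling by summed reads, and that of Tlr2 also without the 20 highest genes. The caspase and pore genes that release interleukin-1 did not pass, with Casp1 at 29.1 and 25.5 and Gsdmd at 46.6 and 49.9, and Nlrp3 stood at 2.39 and 0.873. Ly86 and Cd180, which form a complex related to the lipopolysaccharide receptor, were both lower, with 20.3 and 4.88 for Ly86 and 3.25 and 0.987 for Cd180. Over the 37 genes compared the count was 6 higher and 2 lower, with a median of 0.10 that was below 0 when libraries were scaled by summed reads or without their 20 highest genes.

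Cytokine signaling genes held a few large calls. Of 27 JAK, STAT, SOCS and PIM genes compared, Socs3 and Pim1 were 2-fold higher and none was lower, with a median of 0.04 that was below 0 under scaling by summed reads. Socs3, the feedback inhibitor of the G-CSF and interleukin-6 receptors, had 14 reads in NTB and 506 in 4T1-TB (0.115 and 8.36 in RPKM, 72.9-fold, interval 43 to 134). Stat3 stood at 36.5 and 54.3, Jak3 at 14.9 and 24.3 and Stat5a at 17.4 and 15.9. Among 27 cytokine receptors, Il13ra1 (0.108 and 4.53) and Il4ra (9.52 and 27), the 2 chains of the type II interleukin-4 receptor, were higher, as were Csf2rb and Csf2rb2. Csf1r (24.6 and 11) and Il6st, the shared chain of the interleukin-6 family (16.6 and 6.37), were lower. Bcl3, an atypical IκB protein, was the only one of 16 NF-kB genes past the line (2.53 and 9.42).

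Promoters of called genes were searched for the STAT core TTCNNNGAA. The windows were those of RefSeq (GRCm38.p6, the mm10 sequence), 250 bases before to 50 after each start, searched on both strands, and matches may overlap other motifs. The core was present in 19 of 127 higher genes with a window (15%), in 8 of 102 lower genes (7.84%), in 686 of 8015 genes compared (8.56%) and in 9.55% of all 27025 genes with a window. The AP-1 core TGANTCA was present in 15.7%, 10.8%, 5.70% and 8.97% in the same order, and the C/EBP core TTGCNNAA in 15.7%, 8.82%, 9.98% and 12.2%. These are shares of short letter patterns, and a match does not show that a factor was bound. The RefSeq windows of Pim1 did not hold the STAT core. The stretches printed here hold it, in capitals, for 4 of the 19 higher genes with a match, chosen among the 30 largest increases, and for Irf8, on the strand of each gene.
Steap4, chr5:7960316-7960404, plus strand: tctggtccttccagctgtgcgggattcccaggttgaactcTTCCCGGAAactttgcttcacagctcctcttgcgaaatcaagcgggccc
Pla2g7, chr17:43568266-43568354, plus strand: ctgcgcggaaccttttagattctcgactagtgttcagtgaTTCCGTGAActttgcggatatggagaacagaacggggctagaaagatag
Il1r2, chr1:40085942-40086030, plus strand: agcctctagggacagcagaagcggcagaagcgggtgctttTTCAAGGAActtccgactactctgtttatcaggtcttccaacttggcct
Socs3, chr11:117969472-117969560, minus strand: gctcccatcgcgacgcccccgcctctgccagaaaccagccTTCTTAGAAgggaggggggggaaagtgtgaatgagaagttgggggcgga
Irf8, chr8:120736147-120736253, plus strand: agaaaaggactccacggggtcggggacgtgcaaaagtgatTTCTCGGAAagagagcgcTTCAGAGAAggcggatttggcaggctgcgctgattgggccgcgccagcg
Each core lay within 200 bases upstream of the start, in windows reaching 250 bases upstream. Irf8, the lower gene among those printed, held 2 copies. The genes were printed because they hold the core, and a role of STAT3 in their differences was not tested.

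Chemokine, cytokine, growth factor and acute phase genes held 6 higher calls, Clu and Ccl6 among them, and 1 lower of 19 compared. Lipg, the endothelial lipase gene, stood at 1.08 and 54.9, Saa3, an acute phase apolipoprotein gene, at 0.168 and 14.5, and Chil1, a chitinase-like gene, at 8.42 and 24.5. Prok2, which encodes the myeloid angiogenic factor Bv8, was listed at 0 in NTB and stood at 4.97 in 4T1-TB, at least 112-fold higher against the floor of 3 reads. Of the angiogenic genes with higher baseline, Vegfa stood at 23 and 25.6. The chemokine gene Ccl3 was lower (1.7 and 0.057, from 60 and 1 reads).

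Among genes by which myeloid cells restrain T cells, 3 of 11 compared were 2-fold higher and none was lower. All 3 were under an RPKM of 1 in NTB and so entered the comparison through 4T1-TB, and no call was left at a pseudocount of 5 or among genes that reached an RPKM of 5. Arg2, the mitochondrial arginase gene, stood at 0.0788 and 3.88, and Nos2, the inducible nitric oxide synthase gene, was listed at 0 in NTB and stood at 1.78 in 4T1-TB from 158 reads. Cd244, a receptor of the SLAM family used to mark suppressive neutrophils, stood at 0.701 and 2.66, and its call was lost under scaling by summed reads. Cd274, the PD-L1 gene, stood at 2.87 and 2.74, Tgfb1 at 50.3 and 58.1, Entpd1 at 5.3 and 5.66 and Lgals1 at 172 and 100.4, and none of these passed 2-fold. A further 13 listed genes stayed under an RPKM of 1 in both libraries.

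Sterol and fatty acid synthesis genes were mostly above 0, and few passed the line. Of 38 compared, 36 were above 0 in difference and 6 were 2-fold higher, with a median of 0.51. With a pseudocount of 5 the count was 2, and at 4-fold it was 0. Of the synthesis enzymes, Fdps, which makes farnesyl diphosphate, stood at 58.7 and 145, Sqle, the squalene epoxidase gene, at 6.8 and 17.1 and Msmo1, which removes sterol methyl groups, at 7.12 and 17.7. Insig1, which retains SREBP in the endoplasmic reticulum, was higher with them (10.8 and 25.3). Srebf2, the SREBP2 gene, stood at 13.2 and 22.4 without passing. The fatty acid synthase gene Fasn stood at 31.8 and 48.7. Below 0 were Abcg1, a sterol exporter (2.2 and 1.28), and Lpin1 (1.19 and 0.496), and the exporter Abca1 was under an RPKM of 1 in both libraries (0.194 and 0.948).

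Endoplasmic reticulum folding genes were mostly above 0 as well. Of 30 compared, 26 were above 0 and 1 was 2-fold higher, Creld2 (44.3 and 96), with a median of 0.41. That call was lost under scaling by summed reads or without the 20 highest genes. The chaperone genes Hspa5 (523 and 873), Calr (1183 and 1811) and Sdf2l1 (103 and 198) and the transcription factor Xbp1 (100.2 and 171) were short of the line. The sensor kinases were level or lower, with Ern1 at 46.4 and 31.4 and Eif2ak3 at 11.6 and 11.6. ATF4 targets, tRNA synthetases and amino acid transporters were above 0 for 26 of 30, with a median of 0.35. Asns, asparagine synthetase, stood at 15.5 and 28.9, Atf4 at 92.6 and 127, and every cytosolic tRNA synthetase on the list was above 0. The only call in that list was the lower Ppp1r15a, the phosphatase subunit that reverses translational arrest (9.8 and 3.38).

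Glycolysis, pentose phosphate and hypoxia genes were above 0 for 30 of 37, with a median of 0.29 and 1 call, the glucose transporter gene Slc2a3 (2.94 and 9.93). Hif1a stood at 27.2 and 41.3 and Ldha at 200.1 and 323. All 34 ribosome biogenesis genes were compared and none passed 2-fold, though 31 were above 0 (median 0.19). Under scaling by summed reads the differences of all these metabolic lists moved by at most 0.156, and the sterol, folding, ATF4 and glycolysis medians kept their sign, as did that of ribosome biogenesis. Among antioxidant genes, Gclm, the modifier subunit of glutathione synthesis (21.3 and 56.4), the metallothionein Mt2 (0.482 and 2.67) and Hmox1 (1.2 and 3.6) were higher, of which Hmox1 lost its call under scaling by summed reads or without the 20 highest genes. The peroxiredoxin gene Prdx4 was lower (8.01 and 1.99, 4.04-fold, interval 2.93 to 5.68), while Prdx1 stood at 74.5 and 94.9 and Prdx2 at 74.7 and 77.7.

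**Figure D4:**
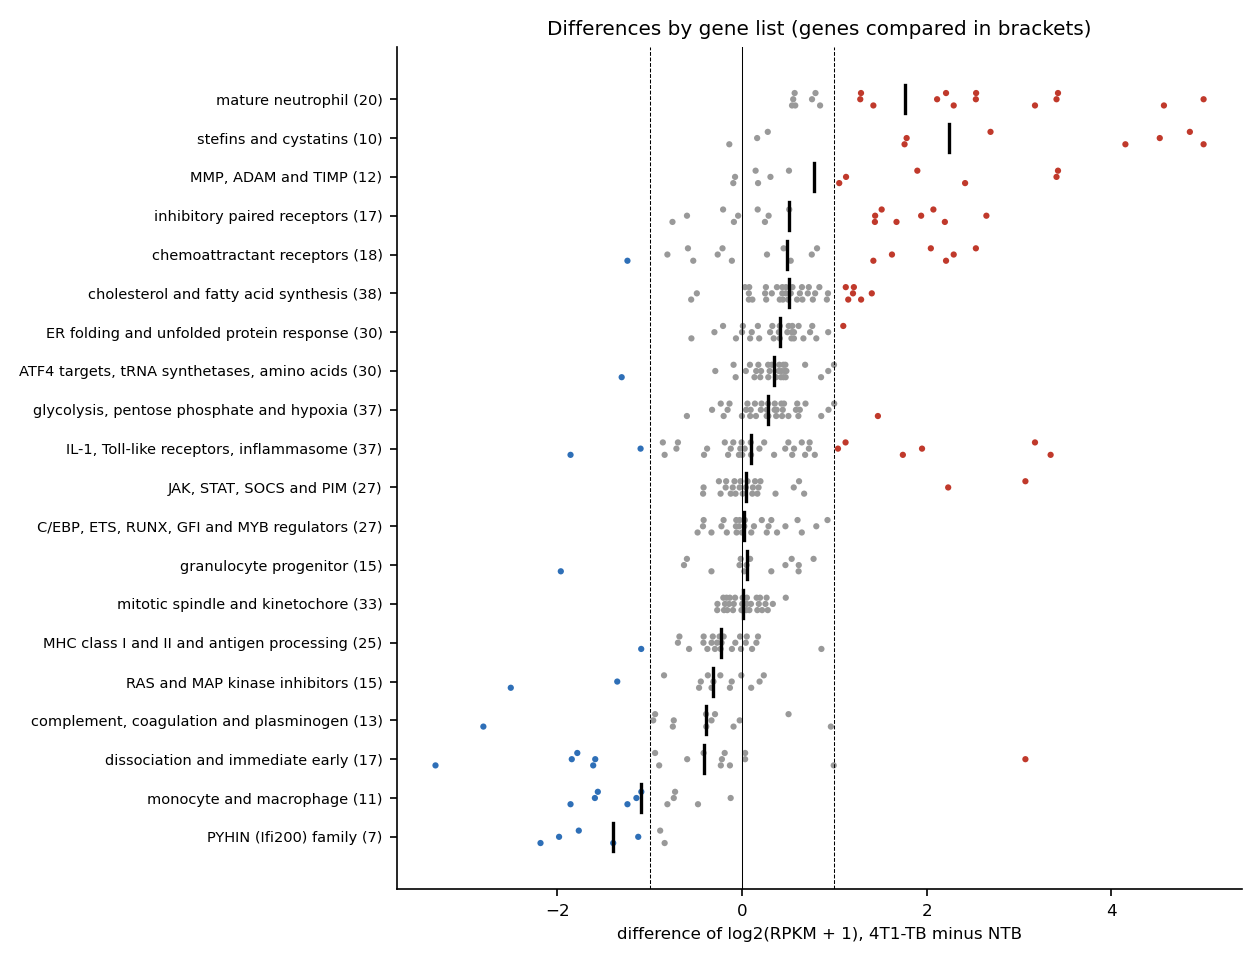
Each dot is a gene compared, placed by its difference of log2(RPKM + 1) between 4T1-TB and NTB, in 20 of the gene lists, red past 2-fold higher and blue past 2-fold lower, with the list median as a black bar and dashed lines at a difference of 1. The mature neutrophil and stefin medians lie at 1.77 and 2.24 and the monocyte and PYHIN medians at -1.09 and -1.39, while the mitotic median lies at 0.01.

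The PYHIN (Ifi200) family, interferon-inducible proteins that include cytosolic DNA sensors, was lower as a family. All 7 members compared were below 0 and 5 were 2-fold lower, with a median of -1.39, beside 1.38% lower over all genes. With a pseudocount of 5, 2 were called and the median was -0.62. Pyhin1 stood at 15 and 2.54 (5.93-fold, interval 5.13 to 6.9) and Mndal at 17.2 and 3.61 (4.76-fold, interval 4.03 to 5.66). Ifi203 stood at 6.54 and 1.22, Ifi202b at 3.8 and 0.827 and Ifi204 at 2.25 and 0.491. Mnda (1.68 and 0.453) and Aim2, the sensor that activates the inflammasome (14.1 and 7.45), did not pass the line. On chromosome 1 from 173747293 to 173982744, all 4 genes compared, Ifi204, Mndal, Ifi203 and Ifi202b, were 2-fold lower. These genes are near-identical in places, so the reads of single members are uncertain. In IRF8-deficient the RPKM of Mndal was 10.2 and that of Pyhin1 9.32, between the other 2 libraries, whereas Ifi204 stood above both at 4.77.

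Interferon response elements were searched in the same promoter windows, on both strands, as GAAA followed after 2 free bases by GAAA. The ETS-IRF composite, which IRF8 binds with PU.1, was searched as GGAA followed after 2 free bases by GAAA. The first was present in 7.84% of lower genes with a window, 10.2% of higher genes and 3.83% of the genes compared, and the second in 2.94%, 4.72% and 2.85%. Mndal and Ifi203 are printed because both lay in the run of lower genes and their windows share an element, in capitals, just upstream of the start.
Mndal, chr1:173880188-173880263, minus strand: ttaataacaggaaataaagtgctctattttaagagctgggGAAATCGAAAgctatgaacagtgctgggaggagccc
Ifi203, chr1:173942493-173942567, minus strand: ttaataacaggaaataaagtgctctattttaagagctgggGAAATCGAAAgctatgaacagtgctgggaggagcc
The windows of the 2 genes share an identical run of 139 bases, so the match is 1 duplicated sequence and not independent support for a motif.

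The 6 monocyte markers past the line were Ly86, Csf1r, Klf4, Irf5 and Cx3cr1, given above, and Ms4a6c, a gene of the Ms4a membrane family (33.3 and 10.4). Its relative Ms4a6d was 2-fold higher (1.95 and 5.19), but not under scaling by summed reads or without the 20 highest genes. F13a1, which encodes a coagulation factor made by monocytes, stood at 151 and 89.8 without passing. The monocyte and progenitor antigen gene Ly6c1 stood at 97.9 and 29.4 (3.33-fold), and its neighbor Ly6c2, one of the largest losses in RPKM, at 739 and 478. Cd93, a lectin-like receptor of early progenitors that is on no list, stood at 65.4 and 19.7 (3.32-fold, interval 3.19 to 3.45). The listed early stem and progenitor markers did not share that direction as a set. Of 8 compared, 5 were above 0, 2 were 2-fold higher, with Ifitm1 the largest, and 1 was lower, Cd34 (median 0.16). Adhesion molecules were mixed, with Itga1, an integrin chain for collagen, lower (4.28 and 0.504) and Cd33 and Cd177 higher (26.2 and 65.1 for Cd177). The integrin genes Itgam (52.2 and 53.9) and Itgal (15.3 and 15.2) were nearly level. MHC and antigen processing genes were below 0 for 19 of 25 (median -0.23), with H2-DMa past the line (15.8 and 6.87).

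Inhibitors of RAS and MAP kinase signaling were below 0 for 12 of 15 compared, with a median of -0.31, and 2 were 2-fold lower. Rasa4, a calcium-dependent RAS GTPase-activating protein, stood at 11.4 and 1.19 (9.6-fold, interval 7.63 to 12.2), and Dusp6, the ERK phosphatase, at 6.93 and 2.11. Met, the receptor for hepatocyte growth factor, stood at 8.82 and 1.74 (5.07-fold). Apba1, an adaptor better known from synapses, stood at 5.28 and 0.747 (7.06-fold, interval 5.82 to 8.65). Thbs1, the thrombospondin gene, was the only call among 13 complement and coagulation genes (9.86 and 0.559), and 11 of the 13 were below 0 (median -0.39). Its RPKM in IRF8-deficient was 73.7, the highest of the 3 libraries.

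Bcl2, which blocks mitochondrial apoptosis, was lower (6.49 and 1.65), and Pmaip1, the NOXA gene, which promotes it, was higher (0.673 and 3.92). Mcl1, on which neutrophil survival depends, stood at 51.7 and 60.1. The inducible Hsp70 genes Hspa1b and Hspa1a were lower by 3.66-fold and 3.51-fold (137 and 37.4, and 123 and 35), together with Hspa1l (2.86 and 0.727) and Msh5 (5.25 and 1.52) in the same run on chromosome 17. Hspa1a and Hspa1b are near-identical copies. The constitutive member Hspa8 was above 0 in difference, at 939.5 and 1609.9. Of the immediate early genes, Fosb (11.4 and 0.239), Fos (42.5 and 13.2) and Jun (39 and 12.3) were lower beside Hsp70. Junb went the other way, just short of the line (14.2 and 29.2), as 1 of 4 members of that list above 0. Such genes respond within minutes to cell handling, and that list, which includes Hspa1a, Hspa1b and Socs3, held 5 lower genes and 1 higher of 17 compared (median -0.42). The part of handling in these results was not tested.

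Iron and metal genes had a median of 0.29 over 20 compared, and all 4 calls among them were higher. Lcn2, the siderophore-binding lipocalin of neutrophil granules, stood at 89.2 and 203, next to Steap4, Slc11a1 and Hmox1 given above. The ferritin chain genes Ftl1 and Fth1 did not pass, with 732 and 935 for Ftl1 and 94.6 and 126 for Fth1. Of 17 S100 and annexin genes compared, 12 were above 0 (median 0.40), and Anxa1, a regulator of neutrophil migration, was 2-fold higher (176 and 479). Serpins and related inhibitors were split, with Wfdc17 and Wfdc21 higher and Serpinf1 (9.03 and 2.65) and Serpinb10 (3.55 and 0.993) lower of 9 compared. Lrg1, an acute phase glycoprotein gene of neutrophil granules, stood at 11.8 and 54.6.

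Several lists held 1 or 2 calls, too few to set against the share over all genes (1.71% higher and 1.38% lower). Zfp36l1, which speeds the decay of AU-rich messages, stood at 0.127 and 2.1 and was the only call among 18 decay and antiproliferative genes. Tnfsf14, the LIGHT gene, was the only call among 31 TNF family and death receptor genes (4.26 and 11.9). Of 40 actin and motility genes, Mcemp1, a mast cell and neutrophil membrane protein gene, was higher (22.2 and 48.7), a call lost under scaling by summed reads or without the 20 highest genes, and Cnn3, a calponin gene, lower (7.16 and 1.24), while Actb stood at 2199 and 2674. Among 28 glycosyltransferases Gcnt2 was higher (0.933 and 3.65) and B3gnt5 lower (11.1 and 4.65). The lysosomal protease gene Ctsh was the only call of 40 lysosome genes (19.1 and 8.46), and Ctsd stood at 122 and 212.

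By RPKM itself, and leaving out ribosomal and small RNAs, 14 of the 15 largest gains were in abundant genes that stayed under 2-fold, and the first was Lars2. S100a9 stood at 4413 and 6556, S100a8 at 4255 and 6254, and of the granule protease genes Prtn3 stood at 2992 and 4585 and Ctsg at 2112 and 3617. Srgn, the proteoglycan that packs granule proteins, stood at 1560.2 and 2141, and Ms4a3, a marker of granulocyte and monocyte progenitors, at 916 and 1331. The largest losses included the translation factor Eef1a1 (5079.6 and 4467) and the granule genes Ngp (632 and 424), Camp (546 and 340.3), Fcnb (421 and 299.9) and Lyz2 (300.3 and 197). None of these 4 granule genes passed the 2-fold line. In IRF8-deficient, Ngp, Camp and Lyz2 stood at 16528, 11611 and 8190.0.

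No cell division gene was called. None of 30 DNA replication genes and none of 33 mitotic spindle genes passed 2-fold, with medians of 0.06 and 0.01. Mcm5 stood at 112 and 115, Pcna at 221 and 247, Top2a at 194 and 174 and Plk1 at 38.3 and 53.6. Chromatin modifying enzymes (36 compared), arginine and polyamine enzymes (15), and serine, one-carbon and nucleotide synthesis genes (30) also held no call. Both small medians of the division lists fell below 0 when libraries were scaled by summed reads.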

How the data were processed

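RNA of granulocyte progenitors was sequenced in 3 libraries, 1 per group, and the NTB and 4T1-TB libraries were compared. Each deposited file gave 1 RPKM value per gene symbol, computed by the authors. The submitters' processing notes name build mm10 and, with no role or order, edgeR 3.12.1, HTSeq 0.6.1, TopHat2 2.0.13, CASAVA 1.8.2, Picard 1.97 and cutadapt 1.2.1. The annotation, strandedness and the library size behind RPKM are not stated there.

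The difference of log2(RPKM + 1) was taken over genes that reached an RPKM of 1 in NTB or 4T1-TB, and calls were made at 2-fold. Reads behind each value were recovered from its steps against gene length for 15158 genes, of which 92.0% of the 9202 with enough reads gave whole gene lengths, and 91.3% of 14553 lay within 0.8 to 1.25 of the reference length. The RPKM values imply library sizes of 44790424 reads in NTB and 22207654 in 4T1-TB, above the summed reads in NTB and below them in 4T1-TB. Counts at or below 3 reads were taken as the floor for genes at 0. Recovery and calling were checked on simulated data. No count model was fitted, since each group held 1 library.

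Coordinates are from GENCODE M21 (mm10) and promoter windows from RefSeq (GRCm38.p6). Lists, members and alternatives were chosen with earlier results of these data known. Named were Irf8, the 30 largest differences each way at an RPKM of at least 5, the 15 largest gains and losses in RPKM, list members past 2-fold with up to 4 others, genes nearest the line, and genes in runs within 200 kb, and a few further members were named after their values were seen. The values of some genes counted in the lists are not reported here.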

Additional observations from a re-analysis of the deposited data

How the results depend on the processing

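With 1 library per group no replicate could be left out, and the spread between mice is unknown. No paired analysis was possible because each group held 1 library. The number of genes called depended on the pseudocount and the threshold. With a pseudocount of 0.1 the counts were 263 higher and 331 lower, and with 5 they were 65 and 21. Among genes at an RPKM of at least 5 they were 109 and 63, and at 4-fold 47 and 5. Scaling by summed recovered reads gave 146 and 180 with a median difference of -0.13, and scaling without the 20 highest genes gave 154 and 167. Median ratio scaling gave 176 and 149, and requiring a counting interval that excludes 1 gave 176 and 142. Of 602 values of 86 named genes under these alternatives 165 moved beyond their counting interval. The 602 include settings that changed only the filter, which cannot change the value of a gene. BC100530 and Stfa3, listed at 0 in NTB, were counted as not moved although their differences changed with the pseudocount. The share that moved therefore understates how far values depended on the setting. Pseudocounts and filters keep the sign of a difference, and the scalings shifted log2 ratios by at most 0.156. A called gene could therefore not change direction under them. Of 60 list medians, 18 changed sign under a scaling, and those with a direction given in the text are named there. Depth limits low genes most, and the median half-width of the counting intervals was 0.12 on the log2 scale.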

Other observations

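Of the called genes, 87 higher and 103 lower were on none of the gene lists, and those named here were chosen after their values were seen. Tarm1, a receptor that costimulates myeloid cells, had an RPKM of 0.0467 in NTB and 3.72 in 4T1-TB, and Cd101, an inhibitory surface protein of late neutrophils, stood at 0.0965 and 3.71. Emilin2, an extracellular matrix gene, stood at 5.25 and 21.7, and Tgfbi, a matrix gene induced by TGF-beta, at 5.42 and 20.3. Dgat2, which completes triglyceride synthesis, stood at 15.5 and 50.9, and Cyp4f18, which degrades leukotriene B4, at 1.06 and 4.95. Rps6ka3, a kinase gene downstream of ERK, stood at 27.3 and 74 and Ada, the adenosine deaminase gene, at 12.1 and 27.3. Irg1, which makes itaconate in activated myeloid cells, stood at 0.00863 and 1.08.

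Of the lower genes on no list, Eng, a TGF-beta co-receptor, stood at 3.89 and 1.3, Adgrl4, an adhesion receptor of endothelium, at 24.8 and 11.7, and Sdc2, a heparan sulfate proteoglycan gene, at 3.84 and 0.829. Lpl, the lipoprotein lipase gene, stood at 2.51 and 0.578, and Dpp4, a peptidase gene, at 1.84 and 0.25. Olfm4, a granule protein gene carried by a subset of neutrophils, was lower (7.23 and 3.02), as was Glipr1 (76.8 and 36.6).

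Small nucleolar and Cajal body RNAs, for which RPKM rests on few reads over short lengths, numbered 39 compared, and their median was 0.15. Of these, 7 passed 2-fold upward and 2 downward. The microRNA gene Mir6240 was listed at 0 in NTB and stood at 28.5 in 4T1-TB from 74 reads.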
